A study of Mus musculus with 22 samples.

Results

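The resident alveolar macrophage signature examined here consists of 9 genes listed by name, Pparg, Fabp4, Fabp1, Car4, Cidec, Krt79, Ear1, Ear2 and Atp6v0d2, which are known to mark macrophages that live in the airspace and to depend on the nuclear receptor PPAR-gamma. They are 9 of the 31116 genes present in both gene count tables. They were chosen by name, without a threshold on their values but with earlier results of these data known. Alveolar macrophages clear surfactant lipid from the airspace. They acquire their identity when GM-CSF and TGF-beta from the lung tissue induce PPAR-gamma, which pairs with a retinoid X receptor and switches on genes for the uptake, storage and breakdown of fatty acids. Classical Ly6Chi monocytes are blood-derived cells that enter an injured lung and can develop into macrophages, and in mice they are not known for this lipid handling program.

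The samples came from adult C57BL/6 mice carrying the SP-C I73T mutant, a disease-linked form of surfactant protein C that is made by the alveolar type 2 epithelium. The mutant allele holds a neomycin cassette, and a single oral gavage of tamoxifen activates a Flp-O recombinase carried in the Rosa26 locus, which excises the cassette and raises mutant SP-C. Lavaged, perfused and collagenase-digested lungs gave SigF+CD11b- alveolar macrophages (4 control samples, 3 samples at 3 d and 3 samples at 14 d after tamoxifen) and Ly6Chi monocytes (4 samples at each of the same times), and each sample was sequenced as poly(A) mRNA. The control samples, labelled untreated, carried the mutant allele too. The study describes the controls of the sequencing as oil-treated SP-C I73T mice, while its general methods pool oil-treated Flp-O carriers with tamoxifen-treated mice lacking Flp-O, and which of these each control sample was is not given by the labels. The study took 3 d as the initiation and 14 d as the peak of injury. Nothing states that samples came from separate mice, so the p-values measure the spread between these samples.

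Between 4610720 and 28789639 fragments were assigned to genes per sample, and the 14 d macrophage samples were the shallowest (4610720 to 6838893, against 10692871 to 17074863 in the other macrophage samples). Yet they had 27699 to 30627 genes detected, against 21951 to 27616 in control and 21499 to 26335 in 3 d macrophages. Their TMM scaling factors were 1.17 to 1.29, against 0.89 to 0.94 and 0.90 to 0.95. The part of this difference in increases of genes at low levels was not tested. A count of 3, used as the detection floor, corresponded to 0.176 to 0.651 CPM (counts of a gene relative to the scaled total of its sample) in macrophages and to 0.104 to 0.194 CPM in monocytes. The sort markers followed the labels in part. Siglecf, the gene of the sorted SigF antigen, measured 231 to 348 CPM in control macrophages, 124 to 322 CPM at 3 d and 90.1 to 127 CPM at 14 d. Itgam, which encodes the CD11b used to exclude cells, measured 0.730 to 2.66, 3.65 to 18.3 and 54.9 to 102 CPM at these times. The 14 d samples thus held CD11b mRNA despite the CD11b- label, and which cells in them carried it was not tested. Ly6c2, the Ly6C gene, stayed between 1.18 and 6.19 CPM in macrophages and between 1314 and 3459 CPM in monocytes. The samples of each cell type at 14 d came from another sex than the rest. The summed counts of Y-linked genes were 0 to 3 per sample in control and 3 d samples, against 433 to 966 in 14 d macrophages and 1949 to 3033 in 14 d monocytes, so sex and the 14 d time point cannot be told apart. None of the 9 genes lies on a sex chromosome.

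In control macrophages the 9 genes covered a wide range of levels. Per kilobase of exon, Ear2 was the most abundant, at a mean of 3252 CPM per kb (n = 4), followed by Ear1 (839), Car4 (582), Atp6v0d2 (401), Cidec (243), Fabp1 (242), Krt79 (173), Pparg (81.4) and Fabp4 (28.6). The ranges of Ear1 and Car4, of Car4 and Atp6v0d2, of Cidec and Fabp1, and of Fabp1 and Krt79 overlapped, and the other neighbours in this order did not. At 3 d, Car4 (1642 CPM per kb) and Ear2 (1557 CPM per kb) led with overlapping ranges. At 14 d, Ear2 (738 CPM per kb) led again and Fabp1 (14.6 CPM per kb) was last, its range overlapping those of Fabp4 and Cidec just above it.

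The first question was whether resident macrophages held these levels after mutant SP-C was induced, and the comparisons used edgeR's quasi-likelihood test, with p-values adjusted by the Benjamini-Hochberg method across every gene tested, calling a gene at an adjusted p below 0.05 and a fold change above 1.5. At 14 d, 8 of the 9 genes were lower than in control macrophages and none was higher. Of all 20944 genes tested, 22.9% were called lower and 39.4% higher in this comparison. The median log2 fold change of the 9 genes was -2.14, against 0.18 over all genes tested. Since the 9 genes were chosen with earlier results of these data known, these values describe these samples and are no test of an independent set. The median over all genes moved with the scaling, from 0.18 with TMM to 0.35 with DESeq2 size factors, 0.61 with library sizes and 0.73 with factors from abundant genes. Relative to that median, the 8 genes lay between -4.23 (Fabp1) and -0.87 (Fabp4) under all 4 scalings. A scaling moves a gene and the median nearly alike, so this agreement was fixed in advance and shows no robustness. The median also depended on the genes kept, and was -0.0077 over genes with a mean log2 CPM above 1. At 3 d no member was called, when 1.27% of all genes were called in either direction. An unadjusted p below 0.05 in the edgeR test was reached by Pparg, Fabp1, Cidec and Ear2, which were lower, and by Car4, which was higher. The share of all genes at that threshold was not computed, so these p-values show nothing about the 9 genes as a set. DESeq2 called 2 of the 9 at 3 d, when it called 3.47% of all genes. From 3 d to 14 d, 6 of the 9 genes fell, with 20% of all genes called lower, and between 4 and 8 members were called under the other settings tried.

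**Figure D1:**
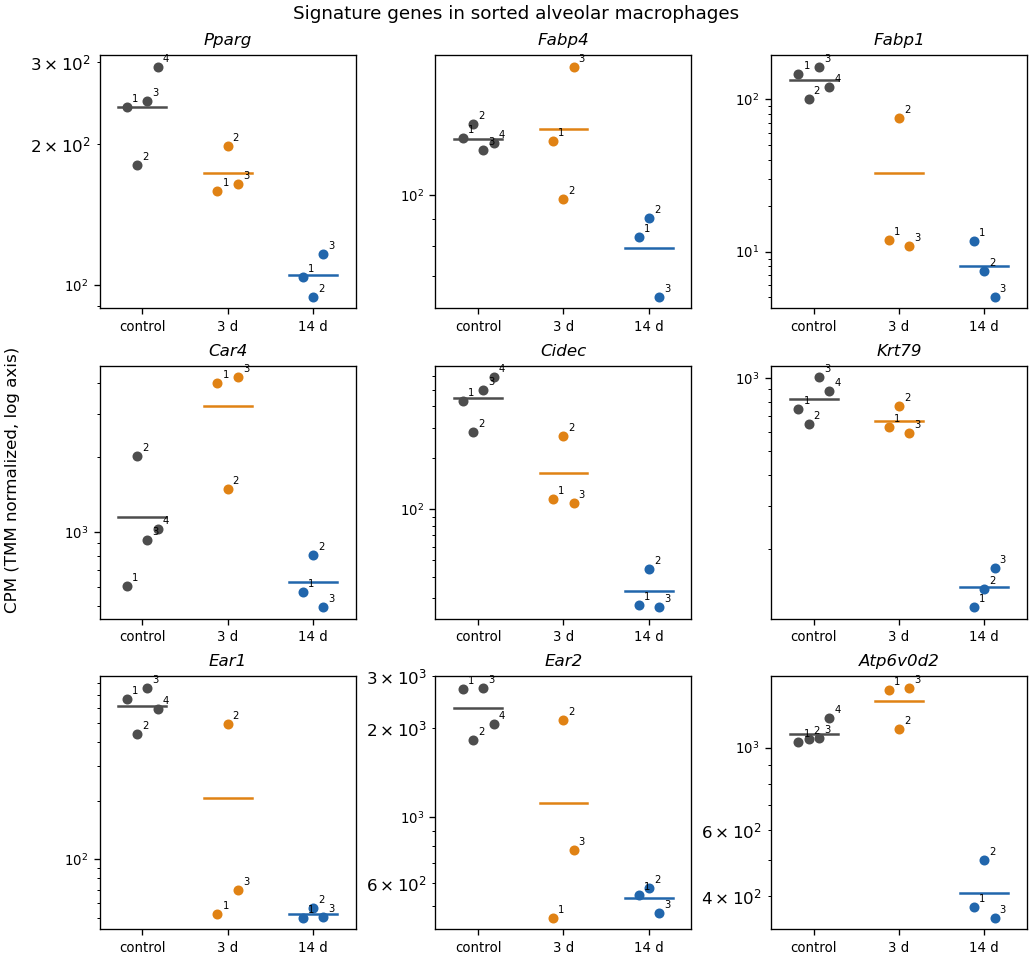
Level of each signature gene in every alveolar macrophage sample, in TMM-normalized CPM on a log axis whose range differs between panels, for control (4 samples), 3 d (3 samples) and 14 d (3 samples). Points carry replicate numbers and horizontal lines are group means. In 8 panels, those other than Car4, the 14 d samples lie below every control sample. The share of all genes with such a separation was not computed, and 62.3% of all genes were called at 14 d in either direction. Replicate 2 stands apart from replicates 1 and 3 at 3 d for Fabp1, Car4, Cidec, Ear1 and Ear2.

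Pparg (ENSMUSG00000000440, chr6:115360951-115490399, + strand, GRCm38), the nuclear receptor itself, measured 240, 180, 248 and 293 CPM in control macrophages, 159, 198 and 164 CPM at 3 d, and 104, 94.4 and 116 CPM at 14 d. The 14 d samples lay below every sample of the other times, and the 3 d samples overlapped the lowest control sample. Pparg was 2.29-fold lower at 14 d than in controls (log2 fold change -1.20 ± 0.17 SE, n = 3 against 4, adjusted p = 2.9e-05 by edgeR) and 1.66-fold lower at 14 d than at 3 d (adjusted p = 0.00247), the latter call being lost with library size scaling, with scaling factors from abundant genes and with a stricter expression filter. The change from control to 3 d (-0.47 ± 0.16) did not pass the adjustment (adjusted p = 0.179). The fitted 14 d level was thus 0.436 of the control level on the macrophage scale used above. With all 22 samples scaled together, the receptor mRNA at 14 d stood lower, at 30.8 to 40.4% of the control mean.

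Fabp4 and Fabp1 encode cytosolic fatty acid binding proteins, and the lower level of Fabp1 was far more pronounced than that of Fabp4. Fabp4 (ENSMUSG00000062515, chr3:10204088-10208576, - strand) measured 129, 137, 122 and 126 CPM in controls, 127, 98.6 and 177 CPM at 3 d, and 83.1, 90.4 and 63.9 CPM at 14 d. The 14 d samples lay below the others by a narrow margin, and the 3 d samples fell on both sides of the controls. Fabp4 was 1.62-fold lower at 14 d (log2 fold change -0.70 ± 0.18, adjusted p = 0.00296), close to the fold threshold. The call was lost with DESeq2 (-0.53, adjusted p = 0.00981), with library size scaling (-0.26), with scaling factors taken from abundant genes (-0.15) and with a stricter expression filter (-0.33), so its direction held and its size depended on the scaling. From 3 d to 14 d Fabp4 was also lower (-0.76 ± 0.19, adjusted p = 0.00339), a call lost under 3 of 8 other settings, down to -0.28. Relative to the median of all genes, its change from control to 14 d lay between -0.88 and -0.87 under 4 scalings. That narrow range follows from how the value is formed, since a scaling moves the gene and the median nearly alike.

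Fabp1 (ENSMUSG00000054422, chr6:71199827-71205023, + strand) measured 148, 101, 165 and 120 CPM in control macrophages, 11.9, 75.0 and 10.9 CPM at 3 d, and 11.7, 7.44 and 5.07 CPM at 14 d. Replicates 1 and 3 at 3 d were as low as the highest 14 d sample, and replicate 2 stood between them and the controls. At 14 d Fabp1 was 16.5-fold lower than in controls (log2 fold change -4.04 ± 0.82, adjusted p = 0.00279), the largest fold among the 9 genes. At 3 d the 3 samples lay below every control, but the change (-2.03 ± 0.70) was not called (adjusted p = 0.25). Without replicate 2 of the 3 d group it was -3.50 and was called (adjusted p = 2.51e-06). The RefSeq promoter window of Fabp1, 250 bases before to 50 bases after the transcript start at chr6:71199629-71199928 (+ strand, GRCm38.p6), is shown because it held more copies of the PPAR half-site letters AGGTCA than any other window read. Both copies lie on the opposite strand as TGACCT. They are in capitals, as are 1 match to GAGGAA, letters bound by PU.1, and 1 match to TTGCNNAA, letters bound by C/EBP factors.
Fabp1: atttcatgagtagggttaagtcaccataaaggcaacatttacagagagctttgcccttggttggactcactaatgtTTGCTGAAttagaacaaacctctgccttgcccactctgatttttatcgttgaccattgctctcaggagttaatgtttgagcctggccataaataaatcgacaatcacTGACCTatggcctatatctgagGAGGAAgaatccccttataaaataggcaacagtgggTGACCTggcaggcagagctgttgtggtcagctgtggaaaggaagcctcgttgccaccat

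Of the 9 genes, 7 had promoter windows in the RefSeq table, 10 windows in all, since Pparg has 3 and Cidec has 2. Both strands were searched for exact matches to each motif, so sites that differ by a letter, including near copies of the direct repeat, were not counted. AGGTCA was found in 3 of the 10 windows, those of Fabp1 and of the first 2 Pparg starts, and in 16.3% of the 32851 promoters of the same length. The direct repeat AGGTCANAGGTCA, the arrangement PPAR-RXR pairs bind best, which contains AGGTCA, was in none of the 10 windows and in 0.0396% of all promoters. TTGCNNAA was in 5 of the 10 windows (Fabp1, the third Pparg start, the second Cidec start, Ear1 and Ear2) and in 10.8% of all promoters. GAGGAA was in 2 windows and in 28.3% of all promoters. CACGTG, the E-box, and TTCNNNGAA, bound by STAT factors, were in no member window, and in 7.15% and 8.3% of all promoters. These matches describe letters within 300 bases and are not measured binding sites.

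Cidec and Krt79 also fell steeply by 14 d. Cidec (ENSMUSG00000030278, chr6:113424634-113435760, - strand), which encodes a lipid droplet protein that promotes droplet enlargement, measured 428, 284, 497 and 594 CPM in controls, 114, 267 and 108 CPM at 3 d, and 27.2, 44.7 and 26.5 CPM at 14 d. The 3 groups did not overlap, and replicate 2 at 3 d lay just under the lowest control. Cidec was 13.7-fold lower at 14 d than in controls (log2 fold change -3.77 ± 0.42, adjusted p = 3.42e-05) and 4.95-fold lower than at 3 d (adjusted p = 0.000938). At 3 d its change was -1.47 ± 0.37 (adjusted p = 0.0921), and it was called without replicate 2 of the 3 d group (-1.98, adjusted p = 0.00187), without replicate 2 of the controls (-1.63, adjusted p = 0.0376) and with DESeq2 (-1.43, adjusted p = 0.000656).

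Krt79 (ENSMUSG00000061397, chr15:101929332-101940324, - strand), a type II keratin, measured 748, 647, 1008 and 882 CPM in controls, 632, 767 and 596 CPM at 3 d, and 115, 136 and 166 CPM at 14 d. The control and 3 d samples overlapped, and the 14 d samples were far below both. Its change had the lowest adjusted p among the 9 genes, being 5.90-fold lower at 14 d than in controls (log2 fold change -2.56 ± 0.19, adjusted p = 3.21e-07) and 4.78-fold lower than at 3 d (adjusted p = 4.76e-06). From control to 3 d its log2 fold change was -0.30 ± 0.17 (adjusted p = 0.461).

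Ear1 and Ear2 encode eosinophil-associated ribonucleases, secreted members of the RNase A superfamily that alveolar macrophages of mice also express. Ear1 (ENSMUSG00000072601, chr14:43818765-43875517, - strand) measured 664, 439, 758 and 589 CPM in control macrophages, 52.2, 494 and 70.0 CPM at 3 d, and 50.1, 56.1 and 50.5 CPM at 14 d. Ear2 (ENSMUSG00000072596, chr14:44102654-44103534, + strand) measured 2710, 1826, 2745 and 2073 CPM in controls, 456, 2129 and 773 CPM at 3 d, and 543, 576 and 473 CPM at 14 d. For both genes, replicate 2 at 3 d lay among the controls, and replicates 1 and 3 were at or near the 14 d level. At 14 d Ear1 was 11.7-fold lower (log2 fold change -3.55 ± 0.85, adjusted p = 0.00633) and Ear2 was 4.41-fold lower (-2.14 ± 0.46, adjusted p = 0.00251) than in controls. At 3 d neither was called, with changes of -1.57 ± 0.76 (adjusted p = 0.414) for Ear1 and -1.06 ± 0.44 (adjusted p = 0.322) for Ear2. Without replicate 2 of the 3 d group both were called, at -3.29 (adjusted p = 4.19e-08) and -1.89 (adjusted p = 4.34e-05).

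The Ear genes are near copies of each other, and their promoter windows are printed to show this. Aligned over 303 columns, the windows of Ear1 (chr14:43819590-43819889, - strand) and Ear2 (chr14:44102404-44102703, + strand) matched at 294 columns (97%), and each holds 1 match to TTGCNNAA, in capitals.
Ear1: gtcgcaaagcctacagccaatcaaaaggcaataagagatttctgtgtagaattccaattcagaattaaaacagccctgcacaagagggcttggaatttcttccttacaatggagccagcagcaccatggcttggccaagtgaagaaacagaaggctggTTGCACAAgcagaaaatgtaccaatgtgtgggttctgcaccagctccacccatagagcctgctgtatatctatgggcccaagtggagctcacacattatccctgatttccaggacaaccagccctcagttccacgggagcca
Ear2: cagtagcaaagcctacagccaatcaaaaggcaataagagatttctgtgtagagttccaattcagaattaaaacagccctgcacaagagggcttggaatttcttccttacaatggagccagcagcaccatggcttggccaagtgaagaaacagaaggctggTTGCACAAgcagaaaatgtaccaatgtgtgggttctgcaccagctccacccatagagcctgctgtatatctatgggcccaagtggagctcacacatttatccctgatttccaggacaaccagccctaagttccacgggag
In their transcripts, 23.8% of the 50-base windows of Ear1 occurred in Ear2 and none of its 150-base windows did. Ear2 shared 26% of its 50-base windows and 6.32% of its 150-base windows with Ear10, a further copy. How reads fitting more than 1 gene were counted is not given in the sources used here, so the split of counts among Ear1, Ear2 and their copies is uncertain. Ear1 also shares 17 exonic bases with the pseudogene Ear-ps9 on the same strand.

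Atp6v0d2 and Car4 had fitted changes above 0 at 3 d, as did Fabp4 by a small margin, and only Atp6v0d2 and Fabp4 among these were called lower at 14 d. Atp6v0d2 (ENSMUSG00000028238, chr4:19876841-19922605, - strand), a tissue-restricted d subunit of the vacuolar proton pump that acidifies lysosomes, measured 1038, 1054, 1060 and 1201 CPM in controls, 1426, 1119 and 1448 CPM at 3 d, and 374, 501 and 349 CPM at 14 d. Of the 3 d samples, 2 lay above every control, and the 14 d samples were below every sample of the other times. Atp6v0d2 was 2.67-fold lower at 14 d than in controls (log2 fold change -1.42 ± 0.16, adjusted p = 5.63e-06) and 3.26-fold lower than at 3 d (adjusted p = 1.28e-05), while its value at 3 d against controls was 0.29 ± 0.15 (adjusted p = 0.421).

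Car4 (ENSMUSG00000000805, chr11:84957786-84966044, + strand), a carbonic anhydrase anchored on the outer cell membrane, measured 607, 2016, 929 and 1027 CPM in control macrophages, 3985, 1494 and 4205 CPM at 3 d, and 573, 807 and 497 CPM at 14 d. Replicates 1 and 3 at 3 d were higher than any other sample, replicate 2 lay within the control range, and the 14 d samples overlapped the lowest control. At 3 d the log2 fold change was 1.496 ± 0.449 (adjusted p = 0.166), opposite in sign to most of the other members. It was called without replicate 2 of the 3 d group (1.88, adjusted p = 0.045), without replicate 2 of the controls (1.92, adjusted p = 0.0269) and with DESeq2 (1.55, adjusted p = 0.045). From 3 d to 14 d Car4 was 5.16-fold lower (-2.37 ± 0.51, adjusted p = 0.0034). Against controls its 14 d value was -0.87 ± 0.46 and not called (adjusted p = 0.119), though it was called without replicate 1 of the controls (-1.07, adjusted p = 0.0416) or without replicate 2 of the 3 d group (-1.06, adjusted p = 0.0439). Car4 is also made by a class of lung capillary endothelial cells, and the summed level of 11 endothelial markers in macrophages was 111 to 164 CPM in controls, 112 to 155 CPM at 3 d and 107 to 112 CPM at 14 d. At 14 d, 9 of the 11 were called higher and 1 lower, when 39.4% of all genes were called higher and 22.9% lower. Vwf, chosen for mention after its values were seen, made up most of that sum in controls (89.4 to 145 CPM) and was at 44.2 to 53.8 CPM at 14 d, opposite to the 9 that rose. Their part in the Car4 values was not tested.

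The members were also compared in pairs over the macrophage samples of all times. In macrophages, 33 of the 36 member pairs had a positive Pearson correlation of log2 CPM over the 10 samples, with a median of 0.753 and a maximum of 0.991. The remaining 3 pairs were Car4 with Fabp1, Ear1 and Ear2, of which the lowest was -0.10. These samples share their groups and depths, so the values describe a pattern and carry no test. Group means were not removed, so genes that fall together at 14 d correlate by construction, and the values show nothing beyond that shared fall. Among 9640 expressed genes, those most like Pparg over the same 10 samples were Rbl1 (r = 0.987), Usp48 (0.977), Uck1 (0.977), Mlst8 (0.976) and Ndrg3 (0.974). Those most like the mean standardized profile of the 9 members were Ppp3r1 (0.996), Vkorc1l1 (0.995), Zgpat (0.994), Degs2 (0.992) and Scyl2 (0.992). Ppp3r1, a calcineurin subunit, measured 215 to 232 CPM in controls and 102 to 118 CPM at 14 d.

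Other cell types could contribute RNA to the sorted macrophages, and the markers of several of them were higher at 14 d, when the members were lower. The counts below stand beside the 39.4% of all genes called higher. At 14 d, the summed level of 7 markers of monocyte-derived or interstitial macrophages was 704 to 1464 CPM, against 59.7 to 101 CPM in controls, and 6 of the 7 tested were called higher. Apoe measured 443 to 933 CPM at 14 d and 46.9 to 79.6 CPM in controls, and C1qa measured 61.0 to 157 CPM and 0.411 to 4.00 CPM. The summed neutrophil markers were 368 to 1505 CPM against 13.3 to 24.6 CPM, with all 6 tested called higher, S100a8 and S100a9 among them. The summed eosinophil markers were 57.2 to 242 CPM against 0.730 to 2.43 CPM, with all 5 tested called higher. Alox15 measured 27.9 to 135 CPM at 14 d and at most 1.11 CPM in controls. Of the eosinophil granule genes, Prg2 measured 18.5 to 82.8 CPM at 14 d and at most 1.14 CPM in controls, a level that overlapped that of Fabp4 at 14 d, and Epx measured 1.39 to 2.30 CPM and at most 0.0685 CPM. The part of eosinophil RNA in the Ear1 and Ear2 levels was not tested.

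**Figure D2:**
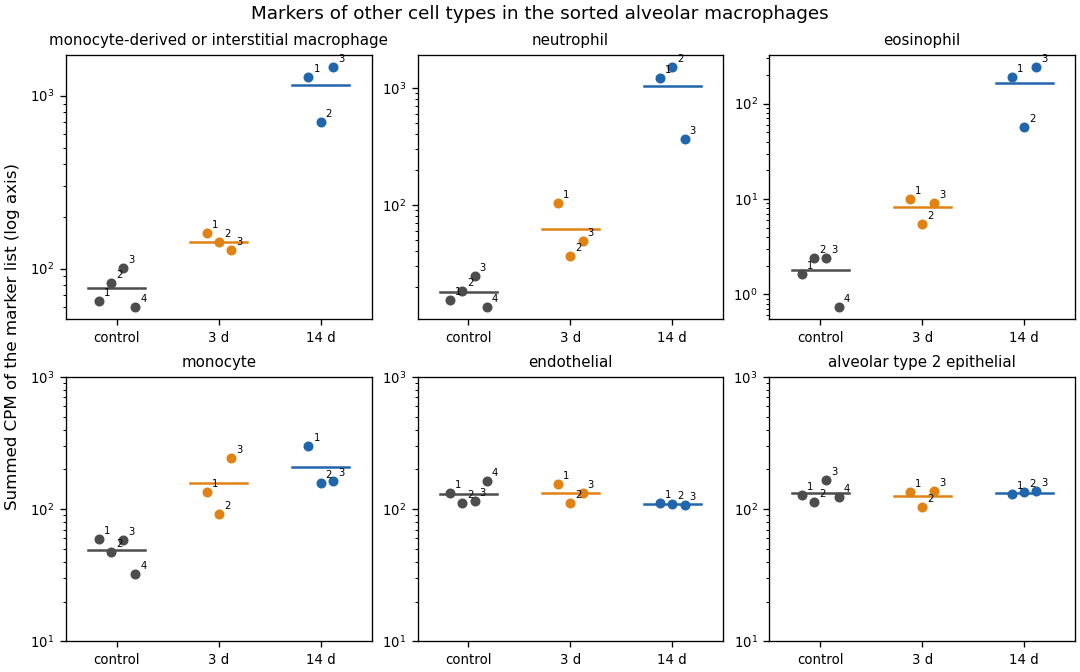
Summed CPM of markers of 6 other cell types in each alveolar macrophage sample, on log axes. Points carry replicate numbers and lines are group means. The monocyte-derived or interstitial macrophage, neutrophil and eosinophil sums are highest at 14 d, and the endothelial and alveolar type 2 epithelial sums stay between 103 and 165 CPM throughout.

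The summed monocyte markers were 32.2 to 59.1 CPM in control macrophages, 92.2 to 242 CPM at 3 d and 158 to 299 CPM at 14 d, with 5 of 8 called higher at 14 d. Ly6c2, which defines the monocyte sort, had a range at 14 d (1.18 to 6.19 CPM) that included that of the controls (1.51 to 3.34 CPM). Alveolar type 2 markers summed to 113 to 165 CPM in controls and 130 to 137 CPM at 14 d, with 2 of 7 called higher and 2 lower, and Napsa alone gave 53.0 to 101 and 77.3 to 87.3 CPM of these sums. The dendritic sums were 19.8 to 29.4 CPM in controls, 69.1 to 109 CPM at 3 d and 25.5 to 86.2 CPM at 14 d. The lymphoid sums were 41.1 to 103, 134 to 385 and 70.8 to 127 CPM, and 3 of 5 dendritic and 1 of 7 lymphoid markers were called higher at 14 d. Their part in the lower level of the signature genes was not tested, and in sorted bulk samples fewer resident macrophages and less signature mRNA per macrophage cannot be told apart. At 3 d, Fabp1, Ear1 and Ear2 were higher in replicate 2 than in the other replicates. Its marker sum for monocyte-derived or interstitial macrophages lay between theirs (128 to 160 CPM over the group). For every other list its sum was the lowest of the group. These were monocytes (92.2 CPM), neutrophils (36.6 CPM), eosinophils (5.51 CPM), lymphoid cells (134 CPM), dendritic cells (69.1 CPM), endothelial cells (112 CPM) and alveolar type 2 cells (103 CPM). The part of these markers in the split of the 3 d replicates was not tested.

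The wider program around the 9 genes moved at 14 d as well. Its gene lists were drawn up with earlier results of these data known, and their counts describe these samples and stand beside the 22.9% of all genes called lower and 39.4% called higher at 14 d. Among 30 tested PPAR-gamma partners and lipid genes, 15 were lower and 3 were higher at 14 d than in control macrophages, with a median log2 fold change of -0.66 against 0.18 over all genes. Abcg1, a cholesterol exporter, was lower (-2.51 ± 0.26, adjusted p = 3.63e-06), as was Cd36, a scavenger receptor and fatty acid transporter (-2.29 ± 0.32, adjusted p = 9.65e-05). Ppargc1a, a coactivator of PPAR-gamma, and Ppara, a relative of it, were higher at low levels, at means of 2.93 against 0.162 CPM and 1.83 against 0.245 CPM. Rxra, the usual partner of PPAR-gamma, chosen for mention after its values were seen, was lower as well (-1.37 ± 0.18, adjusted p = 1.75e-05). At 3 d the list held 1 called gene, Scd1, a fatty acid desaturase, which was higher (1.13 ± 0.20, adjusted p = 0.0122).

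Upstream regulators of resident macrophages went largely the same way. Of 20 tested, 13 were lower and 3 were higher at 14 d, and none was called at 3 d, when 2 or fewer genes of any pathway list were called. Cebpa, a C/EBP factor needed for alveolar macrophages, was lower (-1.97 ± 0.18, adjusted p = 1.15e-06). Among the higher genes were Maf, a transcription factor (3.09 ± 0.41, adjusted p = 2.15e-05), and Smad3, which carries TGF-beta signals (3.06 ± 0.33, adjusted p = 3.63e-06). Of 24 other resident alveolar macrophage genes, 18 were lower and 3 were higher, led by Krt19 (-2.51), Epcam (-2.42), Net1 (-2.12) and Nceh1 (-2.08). Ctsk, a cathepsin of this list, was the one called at 3 d, and it was higher (1.68 ± 0.32, adjusted p = 0.0301).

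Most other subunits of the pump to which Atp6v0d2 belongs fell at 14 d as well. Of 17 other vacuolar ATPase subunits, 12 were lower and 1 was higher at 14 d, with Atp6v0e (-1.30 ± 0.15, adjusted p = 7.58e-06), Atp6v1g1 (-1.29) and Atp6v1e1 (-1.28) the largest decreases, and Atp6v0e2 the increase (1.70 ± 0.53, adjusted p = 0.00975). Among 7 tested relatives of the Ear genes, 3 were lower and 1 was higher. Rnase2a rose from a mean of 0.190 to 29.0 CPM (7.18 ± 0.62, adjusted p = 1.92e-06), Rnase6 fell by 2.89 and Ang by 1.46 on the log2 scale. Ear10, which shares sequence with Ear1 and Ear2, fell by 3.08 from a mean of 4.07 CPM.

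The second question was whether the sorted monocytes carried any of the signature. In controls all 9 genes were higher in macrophages than in monocytes, when 24.5% of all 26692 genes in the joint model of 22 samples were, and their median log2 difference was 3.67 against 0.05 over all genes. The largest difference was that of Krt79, 24.0-fold (log2 difference 4.58 ± 0.78, adjusted p = 9.79e-05), and the smallest were those of Fabp4, 2.54-fold (1.34 ± 0.51, adjusted p = 0.0373), and Ear2, 2.53-fold (1.34 ± 0.36, adjusted p = 0.00466). Fabp4 lost the call in 7 of the 22 fits that each left out a sample. At 3 d all 9 were again higher in macrophages, with 20.4% of all genes called higher, and the differences ranged from 2.21 for Ear2 to 6.39 for Ear1. At 14 d 6 of the 9 were, with 40.4% of all genes called higher. The cell types were counted in separate tables, so cell type and table cannot be told apart.

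**Figure D3:**
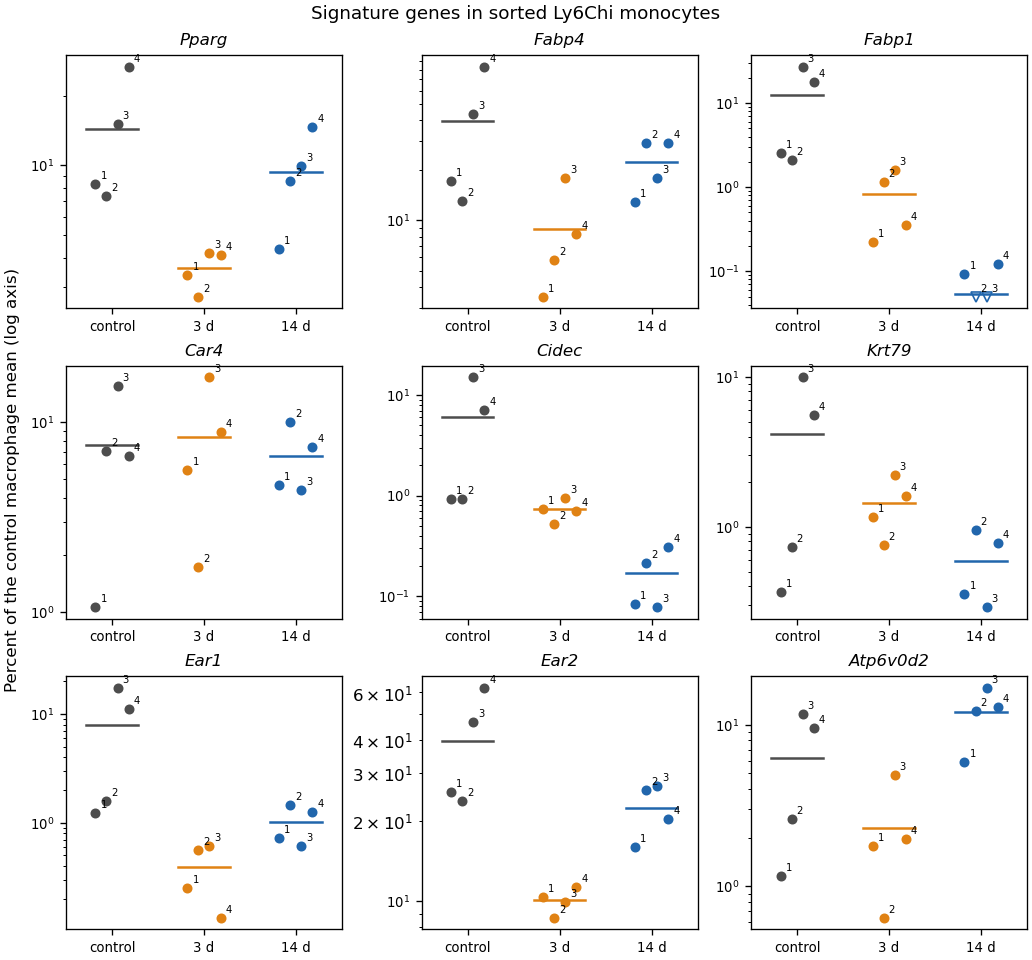
Level of each signature gene in every Ly6Chi monocyte sample as a percentage of its mean in control macrophages, from CPM normalized over all 22 samples, on log axes whose ranges differ between panels. Points carry replicate numbers, lines are group means, and open triangles at the bottom of the Fabp1 panel mark 2 samples with no count. Control replicates 3 and 4 lie above control replicates 1 and 2 for the members other than Car4, and the 3 d samples of Pparg, Fabp1, Ear1 and Ear2 lie below every control.

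The control monocytes fell into unlike samples, and each result against them depends on this. As a percentage of the control macrophage mean, the median over the 9 genes was 1.24% and 2.61% in control monocyte replicates 1 and 2, against 15.5% and 11.2% in replicates 3 and 4. Replicates 3 and 4 also had more Siglecf (29.2 and 19.4 CPM, against a lowest value of 3.55 CPM), more neutrophil markers (106 and 171 CPM, against 15.1 and 17.2 CPM) and more lymphoid markers (630 and 517 CPM, against 155 and 245 CPM), and less of the summed monocyte markers (9116 and 9574 CPM, against 14009 and 12161 CPM). In 3 d and 14 d monocytes the neutrophil sums were 51.0 to 976 and 181 to 804 CPM. The monocyte sums there were 8757 to 9898 and 7082 to 9948 CPM. On both lists control replicates 1 and 2 lay outside the later samples. The lymphoid sums of the later samples, 20.1 to 121 and 14.0 to 31.7 CPM, lay below every control. The part of these markers in the results was not tested. The comparisons with controls were also run without replicates 3 and 4, a choice made after the data were seen. That fit tested 27794 genes, and its median log2 fold change over all genes was 1.18 at 3 d and 0.09 at 14 d, against 0.22 and 0.09 with all controls.

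At 3 d, 6 of the 9 genes were lower in monocytes than in controls, when 14.4% of all 22353 genes tested were lower and 36.8% higher. Without control replicates 3 and 4, 3 of the 9 were lower (Pparg, Ear1 and Ear2), when 12.2% of all genes were. The median log2 fold change of the members was -2.15 against 0.22 over all genes. The latter was 0.70 with library sizes and 0.74 with factors from abundant genes. The 3 d monocyte samples had 40119 to 41134 genes detected, against 24775 to 30865 in controls and 24829 to 32492 at 14 d. Their TMM scaling factors were 1.20 to 1.24, against 0.84 to 0.92 and 0.88 to 0.99. The part of this difference in the 3 d results was not tested. Pparg measured 15.9, 13.7, 28.5 and 48.7 CPM in control monocytes, 5.57, 4.58, 7.15 and 6.82 CPM at 3 d, and 7.74, 15.6, 18.1 and 26.4 CPM at 14 d. The 3 d samples lay below all others, and the 14 d samples overlapped the controls. Pparg was 4.43-fold lower at 3 d than in controls (log2 fold change -2.15 ± 0.41, adjusted p = 0.00143) and 2.82-fold higher at 14 d than at 3 d (1.49 ± 0.41, adjusted p = 0.00952). With control replicates 3 and 4 left out the 3 d change was -1.36 and was still called (adjusted p = 0.0108).

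Ear2 was the member with the highest level in monocytes. It measured 474, 426, 860 and 1105 CPM in controls, 167, 142, 165 and 183 CPM at 3 d, and 276, 461, 478 and 357 CPM at 14 d. The 3 d samples were tightly grouped below every other sample. Ear2 was 4.36-fold lower at 3 d than in controls (-2.13 ± 0.28, adjusted p = 0.000332), which held without control replicates 3 and 4 (-1.52, adjusted p = 0.000552), and 2.39-fold higher at 14 d than at 3 d (1.259 ± 0.272, adjusted p = 0.00321). At 14 d against controls its change was -0.87 ± 0.27 (adjusted p = 0.0611), and -0.19 (adjusted p = 0.651) without replicates 3 and 4. At 14 d the monocytes reached 16.0 to 27.0% and the macrophages 16.9 to 19.3% of the control macrophage mean of Ear2, and the cell types were not distinguished by the test (log2 difference -0.28 ± 0.39, adjusted p = 0.542). This difference changed sign with the scaling, reaching 0.85 with factors from abundant genes.

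Ear1 measured 6.01, 7.58, 84.0 and 52.1 CPM in control monocytes, 1.06, 2.42, 2.63 and 0.565 CPM at 3 d, and 3.29, 6.76, 2.82 and 5.85 CPM at 14 d. The 3 d samples were below every control, and control replicates 3 and 4 were far above all other samples. Ear1 was lower at 3 d (-4.49 ± 0.88, adjusted p = 0.00213) and, without replicates 3 and 4, by less (-2.09, adjusted p = 0.00875). Its 14 d call (-2.998 ± 0.812, adjusted p = 0.04) was lost in 8 of 12 fits with a sample removed, and without replicates 3 and 4 the change was -0.53 (adjusted p = 0.61).

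Fabp1 was at or near 0 in the monocyte samples at 14 d. It had 66, 40, 715 and 443 counts in control monocytes, 5, 24, 28 and 7 counts at 3 d, and 2, 0, 0 and 3 counts at 14 d. All 14 d samples were at or under the floor of 3 counts, and all 3 d samples were below the lowest control. Pooled over samples and scaled to depth, the 3 d level was 7.49% of the control level (exact 95% interval 5.73 to 9.63%) and the 14 d level 0.458% (0.149 to 1.07%), intervals that cover counting error alone. Most of the pooled control counts came from replicates 3 and 4 (715 and 443), so these percentages rest on those samples. Against replicates 1 and 2 alone (66 and 40 counts) the percentages would be higher. Fabp1 was called lower at 3 d (-4.06 ± 0.90, adjusted p = 0.0032), at 14 d (adjusted p = 0.0011), and from 3 d to 14 d (adjusted p = 0.0262). The call from 3 d to 14 d held in 8 of 12 fits with a sample removed and in 6 of 7 other settings. Without control replicates 3 and 4 the 3 d call was lost (-1.72, adjusted p = 0.0892) and the 14 d call held (adjusted p = 0.00351).

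Cidec followed Fabp1 at a higher level, with 3.36, 3.23, 53.8 and 24.6 CPM in controls, 2.28, 1.66, 3.06 and 2.21 CPM at 3 d, and 0.278, 0.740, 0.266 and 1.05 CPM at 14 d. The 3 groups did not overlap on this scale, and control replicates 1 and 2 lay just above the 3 d samples. With all 22 samples scaled together, 3 d replicate 3 (0.957% of the control macrophage mean) lay above control replicates 1 and 2 (0.937 and 0.924%). Its changes were -3.21 ± 0.82 at 3 d (adjusted p = 0.00671) and -5.15 ± 0.92 at 14 d (adjusted p = 0.00355). In the fit lacking control replicates 3 and 4 these were -0.58 (adjusted p = 0.371) and -2.46 (adjusted p = 0.0124), so the 14 d call alone held.

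Fabp4 measured 17.4, 12.9, 44.0 and 81.0 CPM in control monocytes, 3.09, 5.16, 16.3 and 7.29 CPM at 3 d, and 12.2, 28.2, 17.3 and 28.2 CPM at 14 d. Replicate 3 at 3 d lay within the range of the controls, whose replicate 4 reached 83.7% of the control macrophage mean. Fabp4 was lower at 3 d (-2.29 ± 0.63, adjusted p = 0.00937), a call lost without control replicates 3 and 4 (-1.01, adjusted p = 0.149). Krt79 ranged from 2.40 to 64.6 CPM in controls, from 4.356 to 13.01 CPM at 3 d and from 1.81 to 5.97 CPM at 14 d, and was not called at either time (-1.69 ± 0.85, adjusted p = 0.11, and -2.85 ± 0.89, adjusted p = 0.0752). Car4 ranged from 9.53 to 138 CPM in controls, from 13.7 to 138 CPM at 3 d and from 37.8 to 85.9 CPM at 14 d, with no call in any monocyte comparison. Without control replicates 3 and 4, the changes at 3 d and 14 d were 1.17 (adjusted p = 0.0865) and 0.09 (adjusted p = 0.951) for Krt79, and 0.82 (adjusted p = 0.507) and 0.67 (adjusted p = 0.761) for Car4.

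Atp6v0d2 had the largest increase among the members from 3 d to 14 d in monocytes. It measured 9.94, 21.9, 100 and 78.3 CPM in controls, 13.3, 4.85, 37.3 and 14.7 CPM at 3 d, and 47.5, 99.7, 139 and 105 CPM at 14 d. The 14 d samples lay above every 3 d sample and overlapped control replicates 3 and 4. Atp6v0d2 was 5.58-fold higher at 14 d than at 3 d (2.48 ± 0.76, adjusted p = 0.0194), while the changes from control to 3 d (-1.59 ± 0.74, adjusted p = 0.0858) and to 14 d (0.89 ± 0.72, adjusted p = 0.516) were not called. When control replicates 3 and 4 were removed these were 0.07 (adjusted p = 0.945) and 2.63 (adjusted p = 0.104). The monocyte level at 14 d was 5.91 to 16.9% of the control macrophage mean, and the 14 d macrophages were at 26.9 to 36.2%.

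Against controls, 3 of the 9 genes were lower in monocytes at 14 d (Fabp1, Cidec and Ear1), when 5.34% of all genes were lower and 3.22% higher. Without control replicates 3 and 4, 2 were lower (Fabp1 and Cidec), when 4.48% of all genes were. In that fit the changes at 14 d were 0.21 (adjusted p = 0.796) for Pparg and 0.51 (adjusted p = 0.667) for Fabp4, against -0.65 (adjusted p = 0.363) and -0.86 (adjusted p = 0.445) with all controls. From 3 d to 14 d, 3 were higher (Pparg, Ear2 and Atp6v0d2), with 12% of all genes called higher, and Fabp1 was lower, with 34.5% called lower. The median log2 fold change of the 9 genes from 3 d to 14 d was 1.259, against -0.26 over all genes. Both comparisons share the 14 d samples, and the latter also rests on the 3 d samples, whose detected genes and scaling factors differed from the rest.

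**Figure D4:**
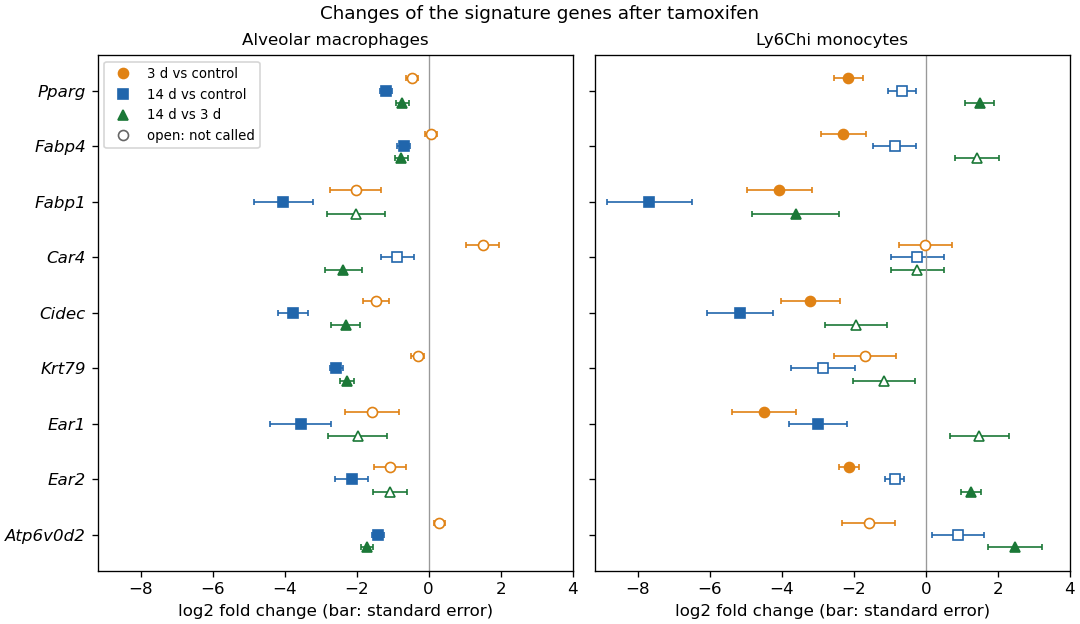
Log2 fold change of each signature gene with its standard error in alveolar macrophages and in Ly6Chi monocytes, at each later time relative to controls and between the later times. Filled symbols are calls at an adjusted p below 0.05 and a fold change above 1.5, and open symbols are not called. In macrophages the filled symbols lie below 0, and in monocytes Pparg, Ear2 and Atp6v0d2 lie above 0 from 3 d to 14 d.

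The gene lists around the signature also moved in monocytes, and their counts stand beside the shares over all genes, 14.4% lower and 36.8% higher at 3 d and 5.34% lower and 3.22% higher at 14 d. From 3 d to 14 d the shares were 34.5% lower and 12% higher. Without control replicates 3 and 4 they were 12.2% lower and 27.2% higher at 3 d, and 4.48% lower and 3.76% higher at 14 d. At 3 d, 13 of 29 PPAR-gamma partners and lipid genes were lower and 3 were higher, with Cd36 (-2.09 ± 0.63, adjusted p = 0.0155) among the lower and Fabp5, a fatty acid binding protein (1.44 ± 0.57, adjusted p = 0.048), among the higher. Without control replicates 3 and 4, 8 were lower and 4 higher of 31 tested, and neither Cd36 (-1.47, adjusted p = 0.144) nor Fabp5 (1.84, adjusted p = 0.114) was called. At 14 d against controls none of the 29 was lower and 5 were higher, led by Fabp5 (2.78 ± 0.60, adjusted p = 0.0122), the cholesterol exporter Abca1 (2.11 ± 0.25, adjusted p = 0.000119), the scavenger receptor Olr1 (2.04) and lipoprotein lipase Lpl (1.61). With control replicates 3 and 4 left out, 6 were higher and none lower, Abca1 (1.98, adjusted p = 0.00132) and Olr1 (2.51, adjusted p = 0.0215) were called, and Fabp5 (3.27, adjusted p = 0.0805) and Lpl (1.48, adjusted p = 0.16) were not. Between 3 d and 14 d, 13 were higher and 3 were lower. Of 20 upstream regulators, 8 were lower and 1 was higher at 3 d, among the lower the TGF-beta receptors Tgfbr2 (-1.64 ± 0.16, adjusted p = 0.000138) and Tgfbr1 (-1.63 ± 0.25, adjusted p = 0.000601), and 2 were higher and 2 lower at 14 d, Tgfbr2 among the lower (-1.01, adjusted p = 0.00105). Without control replicates 3 and 4 these counts were 7 lower and 2 higher at 3 d and 2 and 2 at 14 d, and both receptors were still called at 3 d and Tgfbr2 at 14 d.

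Of 23 other resident alveolar macrophage genes tested in monocytes, 10 were lower and 1 was higher at 3 d, Siglecf (-2.13 ± 0.71, adjusted p = 0.0221) and Marco (-2.27 ± 0.84, adjusted p = 0.0367) among the lower. Siglecf measured 3.89, 3.55, 29.2 and 19.4 CPM in control monocytes and 0.7999 to 6.557 CPM at 3 d, so replicates 3 and 4 carried the decrease. Without them 2 genes of this list were lower and 1 was higher at 3 d, and Siglecf (-0.29, adjusted p = 0.692) and Marco (-0.15, adjusted p = 0.864) were not called. At 14 d, 3 were higher and 1 was lower, with Slc7a2, an arginine transporter, the largest increase (3.26 ± 0.66, adjusted p = 0.00891). Without replicates 3 and 4, 2 were higher and none lower, and Slc7a2 was not called (4.00, adjusted p = 0.0547). Vacuolar ATPase subunits were lower in 5 of 17 cases at 3 d and higher in 2 at 14 d, Atp6v0a1 (1.59 ± 0.25, adjusted p = 0.000889) and Atp6v0c (0.79 ± 0.16, adjusted p = 0.00637), counts that were the same without replicates 3 and 4. Between 3 d and 14 d, 12 of the 17 were higher and 1 was lower, when 12% of all genes were called higher and 34.5% lower. Rnase2a, the Ear relative that rose in 14 d macrophages, was also higher in monocytes at 3 d (5.75 ± 1.31, adjusted p = 0.00433) and at 14 d (6.79 ± 1.34, adjusted p = 0.00806), at means of 11.2 and 23.0 CPM. Without replicates 3 and 4 its 3 d call held (6.75, adjusted p = 0.0427) and its 14 d call did not (7.88, adjusted p = 0.0772).

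Whether the cell types changed differently was tested with an interaction term in the joint model. At 3 d, 2 of the 9 genes were called, when 18.7% of all genes were, so the share of members was near that of all genes. The difference in log2 change, macrophages minus monocytes, was 1.504 ± 0.497 for Pparg (adjusted p = 0.0407) and 2.20 ± 0.74 for Fabp4 (adjusted p = 0.0467). In both genes the decrease in monocytes was called and the change in macrophages was not, and both interaction calls were lost without control monocyte replicates 3 and 4 (0.98, adjusted p = 0.0575, and 1.15, adjusted p = 0.136). At 14 d, 2 of the 9 were called, when 36.8% of all genes were, so members were called no more often than all genes. The difference was -1.61 ± 0.53 for Ear2 (adjusted p = 0.0245) and -2.65 ± 0.88 for Atp6v0d2 (adjusted p = 0.0277), genes called lower in macrophages and not called in monocytes at 14 d, and both calls held without these controls (-2.02, adjusted p = 0.0117, and -4.14, adjusted p = 0.000733). None of the 4 calls held with library size scaling, with scaling factors from abundant genes or with the stricter expression filter. For the other members a difference in the change was not shown at either time.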

How the data were processed

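Poly(A) mRNA of 22 sorted samples was sequenced as paired ends. The authors deposited raw gene counts, 1 table per cell type, and the submitters' processing notes name STAR 2.7.2c and 2.7.3a, featureCounts 1.6.3, DESeq2 1.26.0 and 1.28.1 and GRCm38 (mm10). The annotation release, strand setting and treatment of multi-mapping reads are not given in the sources used here. The tables held 31134 and 55421 genes, of which 31116 were in both, and every column matched a sample. Of the macrophage genes, 31047 had a symbol in the reference annotation (GENCODE M21), which also gave gene positions. Promoter windows came from RefSeq (GRCm38.p6).

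Counts were filtered with filterByExpr, scaled by TMM and tested with edgeR 4.0.16 (R 4.3.3, robust quasi-likelihood F-test, two-sided, Benjamini-Hochberg adjustment over all genes tested). Macrophages and monocytes had separate fits, each over 3 groups. Comparisons between cell types, and the interaction, used 1 fit of all 22 samples over genes in both tables. A call needed an adjusted p below 0.05 and a fold change above 1.5, the thresholds of the study. Levels are TMM-normalized CPM within a cell type. Values across cell types come from the 22-sample scaling. Alternatives were DESeq2 1.42.0, other scalings, other filters, a replicate block, fits of only the groups compared, and leaving out each sample. The edgeR procedure was tested on simulated data, and no 2 samples were duplicates.

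The 9 genes and all gene lists were chosen with earlier results of these data known. Besides the 9 genes and the sort markers, the text names up to 4 called genes with the largest change per list and comparison, and the 5 genes most correlated with Pparg and the 5 most correlated with the mean profile of the 9 over the macrophage samples, among genes with a mean log2 CPM above 3. A gene that this rule would name is not reported here. Genes named otherwise are said to be chosen after their values were seen. Marker lists covered monocytes, eosinophils, neutrophils, endothelial cells, alveolar type 2 cells, lymphoid cells, dendritic cells, and monocyte-derived or interstitial macrophages, and their most telling genes were named after their values were seen.

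Replicate numbers are in the labels, which do not say what a number shares. Same-numbered macrophage and monocyte samples deviated together in every pair for controls (correlation 0.157 to 0.219, 4 pairs) and at 3 d (0.106 to 0.143, 3 pairs), and the replicate block kept all 9 calls in both comparisons.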

Additional observations from a re-analysis of the deposited data

Results flagged for a closer look

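In control macrophages, replicate 4 had 1201 CPM of Atp6v0d2 and stood apart from the other controls (1038 to 1060 CPM), the gap being 0.864 of the group's range. It was the 1 such case among 36 gene and group combinations tested, where chance gives about 1 in 20.

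The cell types differed in their change by the interaction term for 4 member and time combinations, 2 of 9 members at each time, when 18.7% and 36.8% of all genes were called. At 3 d the difference in log2 change, macrophages minus monocytes, was 1.504 for Pparg (adjusted p = 0.0407 by edgeR) and 2.20 for Fabp4 (adjusted p = 0.0467). At 14 d it was -1.61 for Ear2 (adjusted p = 0.0245) and -2.65 for Atp6v0d2 (adjusted p = 0.0277). When samples were left out in turn, the Pparg call held in 15, the Fabp4 call in 6, the Ear2 call in 21 and the Atp6v0d2 call in 19 of 22 fits.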

How the results depend on the processing

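Of the 8 calls in 14 d macrophages, 7 (Pparg, Fabp1, Cidec, Krt79, Ear1, Ear2 and Atp6v0d2) held in all 10 fits without 1 sample and in all 8 other alternatives, and Fabp4 held in 10 and in 4. Where a value moved, the cause was not tested.

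From 3 d to 14 d in macrophages, 4 to 8 members were called under the alternatives, with Pparg and Fabp4 lost under library sizes (-0.30 and -0.33), factors from abundant genes (-0.23 and -0.28) and the stricter filter (-0.37 and -0.42). Elsewhere the number of members called moved as follows. DESeq2 called 2 in macrophages at 3 d and 5 in monocytes at 14 d. From 3 d to 14 d in monocytes, keeping only genes whose mean log2 CPM exceeded 1 (the stricter filter) gave 1 call and fits of only the groups compared gave 7. Without control monocytes 3 and 4 there were 3 calls at 3 d and 8 from 3 d to 14 d in monocytes, and 0 and 5 for the cell type difference in the change at 3 d and 14 d. That difference gave 0 calls at both times with library sizes, factors from abundant genes or the filter, and 1 at 3 d with only the groups compared. Without 1 sample, calls ranged from 0 to 5, 8 to 9 and 6 to 9 in macrophages (3 d, 14 d, 14 d against 3 d), from 6 to 8, 2 to 5 and 3 to 6 in monocytes, from 8 to 9 (control), 9 to 9 (3 d) and 6 to 8 (14 d) between cell types, and from 0 to 2 (3 d) and 0 to 3 (14 d) for the difference in the change.

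Reversed directions were as follows. Fabp4 in macrophages at 3 d was -0.16 without 3 d replicate 3 (range without 1 sample -0.16 to 0.28). Car4 in monocytes at 3 d was 0.15 with DESeq2, 0.48 with library sizes, 0.53 with factors from abundant genes, 0.40 with the filter, 0.16 with the block, 0.0496 with only the groups compared, -0.58 to 0.58 without 1 sample and 0.82 without both controls. Car4 at 14 d was 0.21 with the block, -0.60 to 0.40 without 1 sample and 0.67 without both controls, and from 3 d to 14 d 0.05 with the block and -0.61 to 0.33 without 1 sample. Without both controls, Krt79 and Atp6v0d2 were 1.17 and 0.0692 at 3 d, and Pparg, Fabp4 and Krt79 were 0.21, 0.51 and 0.0875 at 14 d in monocytes. Ear2 between cell types at 14 d was 0.10 with DESeq2, 0.83 with library sizes, 0.85 with factors from abundant genes and 0.38 with the filter. For the difference in the change at 14 d, the same 4 settings gave 0.20, 0.51, 0.60 and 0.41 for Fabp4 and 0.33, 0.63, 0.74 and 0.55 for Krt79, fits without 1 sample gave -0.84 to 0.12 for Fabp4 and -0.96 to 0.33 for Krt79, and without both controls Cidec was -1.41. Without both controls at 3 d, Fabp1 was -0.11, Cidec -0.76 and Krt79 -1.38.

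The replicate block, for which the other comparisons showed no pairing in every pair, called 0, 8 and 6 members in macrophages, 7, 2 and 5 in monocytes, 9, 9 and 8 between cell types, and 2 and 2 for the difference in the change. In monocytes it called Atp6v0d2 at 3 d (-1.38, adjusted p = 0.0434) and Fabp4 from 3 d to 14 d (1.64, adjusted p = 0.0175) and lost Ear1 at 14 d (-2.50, adjusted p = 0.12). At 14 d between cell types it called Fabp4 (1.42, adjusted p = 0.0227) and Atp6v0d2 (1.61, adjusted p = 0.0257).

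Over all genes, the share of calls that were higher moved with library sizes and with factors from abundant genes from 63.3% to 84.5% and 89.0% in 14 d macrophages, from 64.5% to 87.5% and 89.5% from 3 d to 14 d, from 71.8% to 95.1% and 95.8% in 3 d monocytes, from 25.8% to 5.77% and 4.32% from 3 d to 14 d in monocytes, from 55.5% to 71.2% and 67.9% between control cell types, from 63.4% to 87.6% and 87.9% between cell types at 14 d, and from 18.7% to 7.19% and 6.77% (3 d) and 45.9% to 81.5% and 86.0% (14 d) for the difference in the change. Calls over all genes in macrophages numbered 267 at 3 d, against 727 with DESeq2 and 133 with the block, and 13051 at 14 d, against 5018 with the filter.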
